A study of Mus musculus with 9 samples.

Results

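Kruppel-like factors (KLFs) are transcription factors that share a zinc finger DNA-binding domain at the C-terminal end of the protein. The 9 measured here, Klf2, Klf3, Klf4, Klf5, Klf6, Klf7, Klf9, Klf10 and Klf13, were taken as every probe set annotated to these gene symbols, which gave 33 of 45037 non-control probe sets and 9 of 18193 genes. RNA came from the tracheal epithelium of mice hemizygous for a KRT5-GFP transgene, a green fluorescent reporter driven by a keratin 5 promoter. Cells from enzymatic digestion and manual dissection were sorted by flow cytometry on GFP and on binding of the isolectin GSI-A3B into 3 gates, with 3 biological replicates each and 9 arrays in all. The columnar gate (KRT5-GFP-, lectin-) held cells without either mark, the lectin-only gate (KRT5-GFP-, lectin+) cells that bound the lectin without detected reporter, and the GFP+ gate (KRT5-GFP+, lectin+) cells with both marks. The labels call both lectin-binding gates basal cells (BCs). All 3 gates carry the same transgene, no gate was treated, and age and sex are not given in the labels. A reporter of this kind follows the activity of the promoter fragment used, so the GFP- gates can hold cells with Krt5 RNA.

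Values are signals on the log2 scale from Affymetrix arrays, so a difference of 1 is a 2-fold change. A gene is given by its brightest probe set over the 9 arrays unless a probe set is named. Differences were tested with limma, with p adjusted by Benjamini-Hochberg over all 18193 genes, or over all 45037 probe sets where a probe set is named. A call needed an adjusted p under 0.05 together with a difference of 1 or more in size. The spread between replicates is given as SD over 3 arrays for a level and as the limma standard error (SE) for a difference. A signal does not give an absolute amount, so levels of different genes or probe sets are not set against each other.

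As background, KLFs bind CACCC elements and other GC-rich sites, which they share with the related Sp factors, and members compete for the same sites as activators or repressors. The family falls into 3 branches by the partners of the N-terminal part. Klf3 recruits the corepressor CtBP. Klf9, Klf10, Klf11, Klf13 and Klf16 bind the Sin3 corepressor, and Klf2, Klf4, Klf5, Klf6 and Klf7 mostly act with acetyltransferases as activators. In stratified and airway epithelia, Klf4 is known for barrier formation and cell cycle exit and Klf5 for growth of progenitor cells. Several KLF genes are induced rapidly by serum, shear stress, hormones or tissue dissociation.

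KLF genes are themselves described as targets of GC-box and CACCC binding factors, so the 250 bases upstream of the RefSeq start were searched for CACCC and for the GC box GGGCGG on both strands, a base shared by 2 matches being counted in each. RefSeq promoter entries (build GRCm38.p6) matched 7 of the 9 genes, with none used for Klf5 and Klf10. Those of Klf4, whose difference was called below, of Klf6, whose largest difference between gates was the smallest of the 9, of Klf9, whose probe sets spread widest in GFP+ against columnar, and of the related gene Klf11 are shown 5′ to 3′ on the strand of the gene, with capitals for CACCC or GGGCGG on either strand.
Klf4 (chr4:55532476-55532725, minus strand): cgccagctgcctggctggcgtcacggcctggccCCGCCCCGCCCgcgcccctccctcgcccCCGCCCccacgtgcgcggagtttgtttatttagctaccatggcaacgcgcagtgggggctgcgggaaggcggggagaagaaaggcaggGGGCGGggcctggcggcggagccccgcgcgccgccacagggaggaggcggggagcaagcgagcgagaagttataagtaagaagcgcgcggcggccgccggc
Klf6 (chr13:5861239-5861488, plus strand): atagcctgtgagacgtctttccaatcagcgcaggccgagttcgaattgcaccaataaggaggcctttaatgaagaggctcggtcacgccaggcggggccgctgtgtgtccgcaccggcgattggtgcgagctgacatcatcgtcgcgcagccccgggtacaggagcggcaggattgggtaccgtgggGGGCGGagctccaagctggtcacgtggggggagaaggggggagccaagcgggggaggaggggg
Klf9 (chr19:23140976-23141225, plus strand): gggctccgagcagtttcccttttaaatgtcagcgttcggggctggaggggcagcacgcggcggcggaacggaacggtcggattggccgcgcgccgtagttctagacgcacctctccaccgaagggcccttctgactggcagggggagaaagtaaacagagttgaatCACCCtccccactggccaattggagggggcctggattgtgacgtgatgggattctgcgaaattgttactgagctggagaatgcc
Klf11 (chr12:24651121-24651370, plus strand): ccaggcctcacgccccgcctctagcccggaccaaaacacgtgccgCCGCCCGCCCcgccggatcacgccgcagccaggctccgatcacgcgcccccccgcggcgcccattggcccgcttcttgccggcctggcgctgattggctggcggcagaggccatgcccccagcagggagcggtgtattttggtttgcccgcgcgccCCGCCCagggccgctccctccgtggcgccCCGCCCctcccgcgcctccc
The Klf4 window held 4 matches to GGGCGG and 0 to CACCC, with a GC content of 74.0%. The Klf6 window held 1 and 0, at 64.8% GC. In the Klf9 window there were 0 matches to GGGCGG and 1 to CACCC, at 59.6% GC, and the Klf11 window held 4 and 0, at 76.8% GC. CACCC occurred in 5 of the 7 KLF windows and in 52.0% of the 32851 RefSeq windows of the same length, and GGGCGG in 6 of 7 and in 32.7%. The sequence TGANTCA occurred in 1 KLF window, that of Klf9, as TGAATCA, against 6.7% of all. TGACGTCA and the serum response element (CArG box) occurred in 0 of 7, against 1.5% of all windows for each. A match is a string of letters and not a measured binding site.

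The arrays and gates were checked first. Arrays correlated across probe sets at 0.975 to 0.987 within a gate and at 0.952 to 0.985 between gates. The third lectin-only array stood apart: its median was 5.44 and 73.0% of its probe sets exceeded the background level of 3.56, while the other 8 arrays had medians of 4.91 to 5.16 and 65.27% to 66.26% of probe sets above that level. In columnar, lectin-only and GFP+ cells, in this order, the basal genes Krt5 and Trp63 averaged 7.96, 12.88 and 13.43, and 7.62, 11.94 and 13.06. The ciliated gene Foxj1 averaged 7.30, 5.44 and 4.09, and the leukocyte gene Ptprc 3.25 (1 of 3 arrays above background), 8.95 and 5.41.

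Nearly all KLF signals were above background, and few differed between gates. Of the 33 KLF probe sets, 32 were above background on all 9 arrays and the other, a Klf9 probe set, on 7. In GFP+ against columnar, 1 of 9 KLF genes was called, Klf4, higher in the GFP+ gate, beside 11.2% of all genes called in either direction and 5.88% called higher. At an adjusted p under 0.05 with no minimum difference there were 2, Klf4 and Klf10, both higher, beside 14.1% of all genes in either direction. In lectin-only against columnar, 0 of 9 were called, beside 8.85% of all genes called, and 2 had an unadjusted p under 0.05. Klf4 alone had an adjusted p under 0.05 there, beside 10.6% of all genes. In GFP+ against lectin-only, 0 of 9 were called, beside 3.74% of all genes called, and 0 had an unadjusted p under 0.05. With 9 genes, 1 call is a share near that of all genes.

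In GFP+ against columnar the 9 KLF differences ran from -0.19 to 1.05 with a median of 0.05, and 7 of 9 lay within 0.5 of 0, as did 69.8% of all genes, whose median was -0.04. In lectin-only against columnar the KLF range was 0.04 to 0.85 with a median of 0.19, 8 of 9 within 0.5 of 0, against 72.5% of all genes and a median of 0.07. All 9 KLFs were above 0 there, but after each array was centred on its median only Klf4 and Klf10 were. Without replicate 3 of the lectin-only gate, 7 of 9 were above 0. In GFP+ against lectin-only the range was -0.40 to 0.20 with a median of 0.00, all 9 within 0.5 of 0, against 77.9% of all genes and a median of -0.10.

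**Figure D1:**
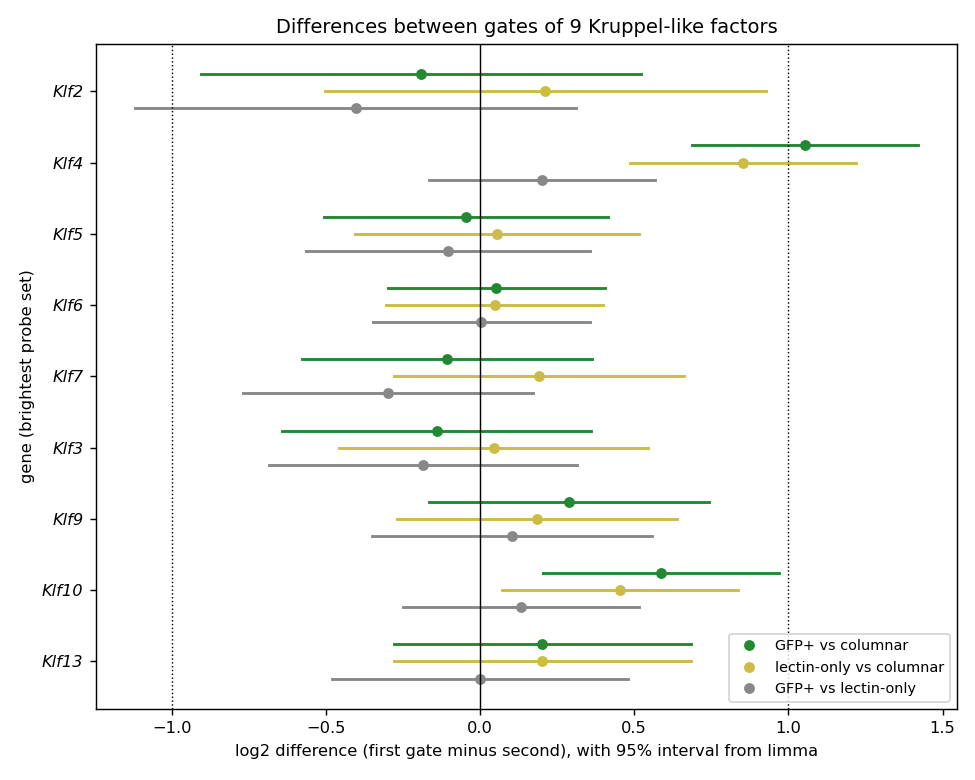
Log2 differences between gates for the 9 KLF genes, brightest probe set each, with 95% limma intervals; dotted lines mark 1 and -1. The Klf4 intervals against the columnar gate run from 0.69 to 1.42 (GFP+) and from 0.49 to 1.22 (lectin-only), and most other intervals cross 0.

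Klf4, which drives barrier genes in stratified epithelia, was the 1 KLF gene called. On its brighter probe set (1417395_at) the columnar arrays read 11.46, 11.73 and 11.44, the lectin-only arrays 12.43, 12.49 and 12.26, and the GFP+ arrays 12.70, 12.56 and 12.53. The 3 gates did not overlap, and the columnar arrays were the lowest. The means were 11.54 ± 0.17 (SD, n = 3), 12.40 ± 0.12 and 12.60 ± 0.09. GFP+ exceeded columnar by 1.05 ± 0.16 (SE), a 2.08-fold difference (adjusted p = 0.00205, 95% interval 0.69 to 1.42), and the gene was called.

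Lectin-only exceeded columnar by 0.85 ± 0.16 for Klf4, a 1.81-fold difference (adjusted p = 0.00871), which passed the p threshold but not the minimum difference. Without replicate 3 of the lectin-only gate it was 0.92 (adjusted p = 0.0102). Centred on array medians it was 0.61 with an adjusted p of 0.092. The order of levels was thus columnar, lectin-only, GFP+, and the arrays of the last pair did not overlap, but their difference did not pass the test: GFP+ minus lectin-only was 0.20 ± 0.16, with an interval of -0.17 to 0.57 (adjusted p = 0.665). Because these are mixed cell populations, fewer cells with the RNA and less RNA per cell cannot be told apart.

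The other Klf4 probe set (1417394_at) read 11.48, 11.33 and 11.07 in the columnar gate, 12.02, 12.11 and 12.10 in the lectin-only gate and 12.02, 12.37 and 12.21 in the GFP+ gate. Columnar arrays were again lowest and did not overlap the others, while the lectin-only and GFP+ arrays overlapped. Its differences from columnar were 0.91 ± 0.18 in GFP+ (adjusted p = 0.0124) and 0.78 ± 0.18 in lectin-only (adjusted p = 0.0343), each under the minimum of 1. On the brighter probe set the GFP+ against columnar difference ran from 1.00 to 1.15 with any 1 of the 9 arrays left out and was called each time. It fell under the minimum, at 0.97, when arrays were centred on their medians (adjusted p = 0.00999) and, at 0.98, when the probe sets were averaged (adjusted p = 0.0015).

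**Figure D2:**
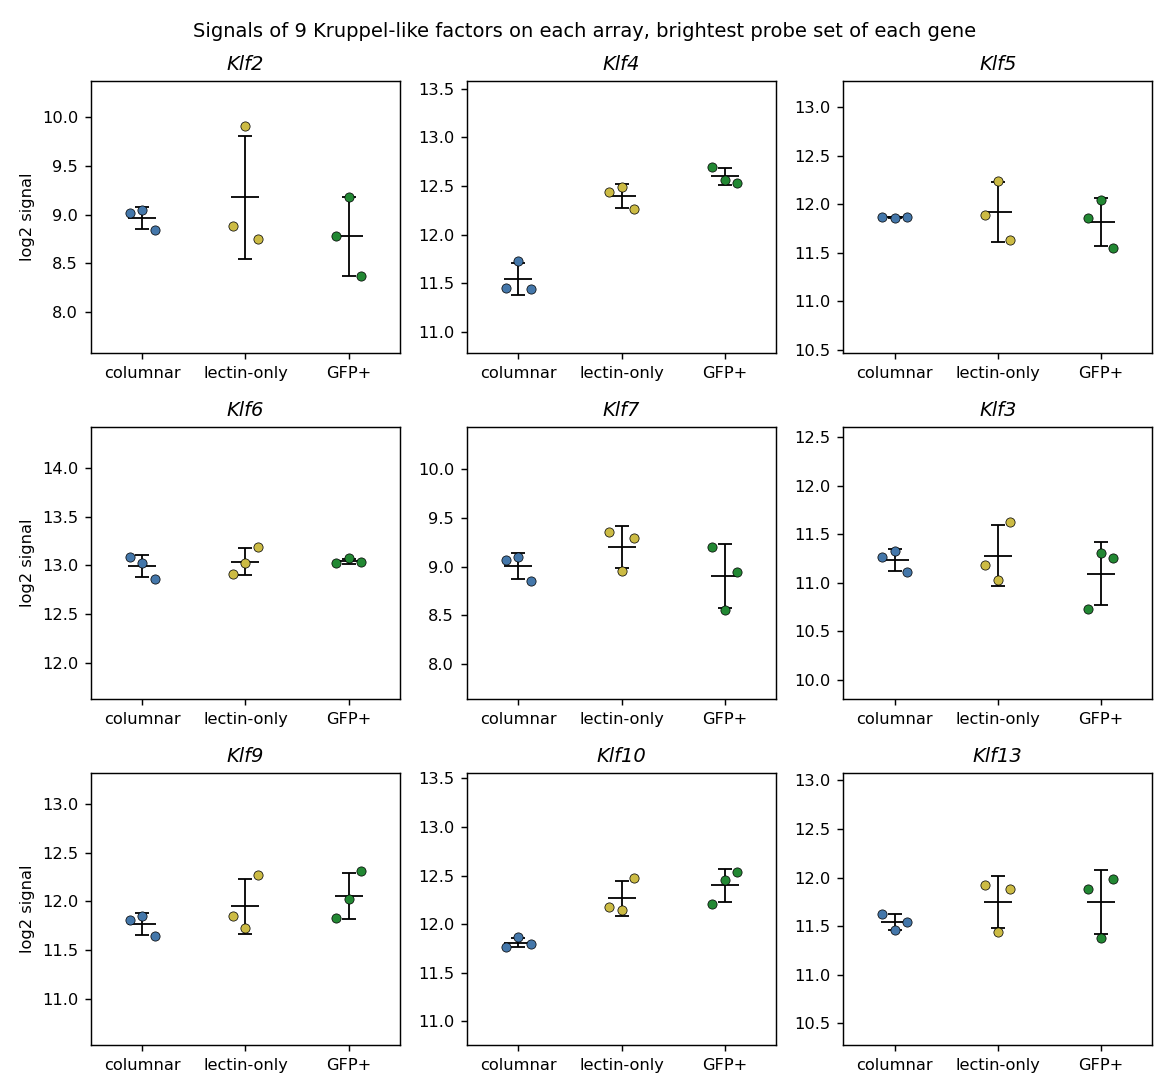
Log2 signal of each KLF gene on each array by gate; points are arrays, long bars means and whiskers SD over 3 arrays, and all panels span the same log2 range around their own centre. Klf4 and Klf10 are lowest on the 3 columnar arrays, and the gates overlap for the other 7 genes.

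Klf10, an early response gene of TGF-beta, had a smaller difference in the same direction. Its 1 probe set read 11.77, 11.87 and 11.80 in the columnar gate, 12.17, 12.15 and 12.48 in the lectin-only gate, and 12.21, 12.45 and 12.54 in the GFP+ gate. The columnar arrays lay below all 6 others, while the lectin-only and GFP+ arrays overlapped. GFP+ minus columnar was 0.59 ± 0.17, or 1.5-fold (adjusted p = 0.0481 over genes and 0.0791 over probe sets). The adjusted p over genes stayed under 0.05 in only 1 of the 9 fits that left out an array, that without replicate 3 of the lectin-only gate (0.0256). It was under 0.05 in 5 of the 8 other alternatives, and over all alternatives it ran from 0.00741 to 0.164. Lectin-only minus columnar was 0.45 ± 0.17 (adjusted p = 0.145) and GFP+ minus lectin-only 0.13 ± 0.17 (adjusted p = 0.809). For Klf4 and Klf10 the columnar arrays lay below every GFP+ array, a count of 2 of 9 KLF genes, beside 15.8% of all genes that were higher without overlap. The same 2 genes did so in lectin-only against columnar, beside 16% of all genes. In GFP+ against lectin-only only Klf4 was higher without overlap, beside 5.24%.

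The remaining activators showed no difference that passed the test. Klf5, known for growth of basal progenitors, read 11.86, 11.86 and 11.87 in the columnar gate, 11.89, 12.24 and 11.63 in the lectin-only gate and 11.86, 12.04 and 11.55 in the GFP+ gate. The gates overlapped, and the columnar arrays spread least (SD 0.005). GFP+ minus columnar was -0.05 ± 0.21, with an interval of -0.51 to 0.41 (adjusted p = 0.932), so a difference of 1 in either direction lay outside it. Lectin-only minus columnar was 0.06 (adjusted p = 0.927). On the dimmer Klf5 probe set 1451739_at the columnar arrays read 7.40, 7.46 and 6.81, the lectin-only arrays 7.16, 6.59 and 6.61 and the GFP+ arrays 7.13, 7.49 and 6.94, again with overlap. It gave -0.03 in GFP+ against columnar and -0.43 ± 0.26 in lectin-only against columnar (adjusted p = 0.483). The dimmest, 1430255_at, gave 0.36 and 0.20 in these comparisons, neither past the test.

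Klf6, a rapidly induced activator of extracellular matrix and growth-arrest genes, read 13.09, 13.03 and 12.86 in the columnar gate, 12.91, 13.02 and 13.19 in the lectin-only gate and 13.02, 13.07 and 13.04 in the GFP+ gate. The gates overlapped throughout, and no gate mean lay over 0.05 from another, the least of the 9 genes. GFP+ minus columnar was 0.05 ± 0.16 (interval -0.30 to 0.40, adjusted p = 0.899), and GFP+ minus lectin-only was 0.00 ± 0.16 (adjusted p = 0.996). Its 5 probe sets did not behave alike on replicate 3 of the lectin-only gate. That array read 10.29 on 1418280_at, where the other lectin-only arrays read 11.55 and 11.75, and 12.24 on 1447448_s_at, where they read 13.06 and 13.17. It also read lowest on 1427742_a_at (8.97), but highest of its gate on 1433508_at (13.19) and 1459718_x_at (8.23). Lectin-only minus columnar on 1418280_at was -0.58 ± 0.34 (adjusted p = 0.471), and -0.13 without that array.

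Klf2, known for quiescence of endothelial cells and T cells, read 9.02, 9.05 and 8.84 in the columnar gate, 8.88, 9.91 and 8.75 in the lectin-only gate and 8.78, 9.18 and 8.37 in the GFP+ gate. Replicate 2 of the lectin-only gate was the highest array, and the gates overlapped. Lectin-only minus columnar was 0.21 ± 0.32 (adjusted p = 0.792) and turned to -0.15 without that replicate. GFP+ minus lectin-only was -0.40 ± 0.32 (interval -1.12 to 0.31, adjusted p = 0.654), and GFP+ minus columnar -0.19 ± 0.32 (interval -0.91 to 0.52, adjusted p = 0.796).

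Klf7, best known in neuronal development, read 9.07, 9.10 and 8.86 in the columnar gate, 9.35, 8.95 and 9.30 in the lectin-only gate and 9.21, 8.55 and 8.95 in the GFP+ gate. The gates overlapped. Its differences were -0.11 ± 0.21 in GFP+ against columnar (adjusted p = 0.834), 0.19 ± 0.21 in lectin-only against columnar (adjusted p = 0.696) and -0.30 ± 0.21 in GFP+ against lectin-only (adjusted p = 0.597). On probe set 1419356_at, replicate 2 of the columnar gate read 10.51 while the other columnar arrays read 6.76 and 6.51, and all lectin-only and GFP+ arrays lay between 6.52 and 7.17. Lectin-only minus columnar there was -1.01 ± 0.86 (adjusted p = 0.667) and 0.28 without that replicate. The other Klf7 probe sets showed no such array. On 1449439_at the level was 8.73 ± 0.36 (SD, n = 3) in columnar, 9.13 ± 0.31 in lectin-only and 8.71 ± 0.12 in GFP+, and the gates overlapped. There lectin-only minus columnar was 0.40 ± 0.24 (adjusted p = 0.483) and GFP+ minus lectin-only -0.42 ± 0.24 (adjusted p = 0.613), in the directions of the brightest probe set and without passing. On 1419355_at the lectin-only arrays read 7.55, 7.49 and 7.51, above all columnar arrays (7.12, 7.46 and 7.10), with a difference of 0.29 ± 0.19 (adjusted p = 0.551).

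Klf3, the CtBP-dependent repressor, had no difference on its brightest probe set but 1 on a dimmer one. On 1454666_at the columnar arrays read 11.27, 11.33 and 11.11, the lectin-only arrays 11.19, 11.03 and 11.63, and the GFP+ arrays 10.73, 11.31 and 11.25. The gates overlapped, and lectin-only minus columnar was 0.04 ± 0.22 (adjusted p = 0.949), GFP+ minus columnar -0.14 ± 0.22 (adjusted p = 0.783). On 1431630_a_at the columnar arrays read 6.45, 6.25 and 6.64, the lectin-only arrays 7.21, 7.44 and 8.11, and the GFP+ arrays 6.80, 7.02 and 7.39. Every columnar array lay below the other 6, and replicate 3 of the lectin-only gate was the highest.

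On that Klf3 probe set, lectin-only exceeded columnar by 1.14 ± 0.26 (adjusted p = 0.0351 over probe sets), the 1 KLF probe set called in that comparison, beside 5.08% of all probe sets. Without replicate 3 of the lectin-only gate it was 0.88 with an adjusted p of 0.0741, and the call was also lost when any columnar array, lectin-only replicate 2 or GFP+ replicate 2 was omitted (adjusted p 0.0589 to 0.12). GFP+ minus columnar was 0.62 ± 0.26 (adjusted p = 0.235). The other 6 Klf3 probe sets lay between 0.02 and 0.65 in lectin-only against columnar and did not pass. On 1421604_a_at the lectin-only arrays read 9.33, 9.38 and 9.48, above all columnar arrays (9.09, 8.41 and 8.74) and all GFP+ arrays (8.97, 9.02 and 8.71). Its difference from columnar was 0.65 ± 0.21 (adjusted p = 0.122) and that of GFP+ from lectin-only -0.50 ± 0.21 (adjusted p = 0.392). On 1429360_at the GFP+ arrays were the lowest, at 8.76, 8.73 and 8.52, against 8.99, 8.84 and 9.10 in columnar and 9.06, 9.33 and 9.15 in lectin-only. GFP+ minus lectin-only was -0.51 ± 0.17 there (adjusted p = 0.238). On 1442920_at, in contrast, GFP+ minus lectin-only was 0.45 ± 0.26 (adjusted p = 0.617), so the dimmer Klf3 probe sets did not share a direction between the lectin-binding gates.

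Of the Sin3-binding branch, Klf9, a glucocorticoid- and thyroid hormone-induced repressor, read 11.81, 11.85 and 11.64 in the columnar gate, 11.85, 11.73 and 12.27 in the lectin-only gate and 11.83, 12.02 and 12.31 in the GFP+ gate on its brightest probe set. The gates overlapped, and GFP+ minus columnar was 0.29 ± 0.20 (adjusted p = 0.452). Of its 7 probe sets, 6 lay above 0 in GFP+ against columnar, over a range of -0.31 to 1.25, and 0 were called. On 1422264_s_at the GFP+ arrays read 8.67, 8.56 and 8.85, the columnar arrays 8.03, 7.32 and 7.89, and the lectin-only arrays 8.45, 7.71 and 7.77. The GFP+ arrays were above all others, by 0.95 ± 0.26 over columnar (adjusted p = 0.0573) and 0.72 ± 0.26 over lectin-only (adjusted p = 0.294). On 1428289_at the GFP+ arrays read 11.14, 11.05 and 11.23, above all columnar arrays (10.93, 10.72 and 10.77), while the lectin-only arrays read 10.80, 10.80 and 11.13. The GFP+ arrays of 1456341_a_at (11.76, 11.85 and 11.77) were also above all columnar arrays (11.59, 11.52 and 11.41), and its lectin-only arrays ranged from 11.18 to 11.96. These differences were small, 0.33 ± 0.17 and 0.29 ± 0.21 (adjusted p = 0.349 and 0.571). The dimmest, 1436952_at, was near background, at 3.13 to 4.60 over the 9 arrays, and alone lay below 0, at -0.31 ± 0.33 (adjusted p = 0.732).

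The largest Klf9 value came from a dim probe set, 1452723_at. It read 4.21, 5.68 and 4.32 in the columnar gate, 5.64, 5.64 and 6.18 in the lectin-only gate and 5.98, 5.85 and 6.14 in the GFP+ gate. Replicate 2 of the columnar gate stood above the other columnar arrays and overlapped the lectin-only gate. GFP+ minus columnar was 1.25 ± 0.36 (adjusted p = 0.0719), and 1.72 without that replicate (adjusted p = 0.00327). Lectin-only minus columnar was 1.08 ± 0.36 (adjusted p = 0.149), and 1.55 without it (adjusted p = 0.00812).

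Klf13, which activates Ccl5 (RANTES) in late activated T cells, read 11.63, 11.46 and 11.55 in the columnar gate, 11.92, 11.44 and 11.88 in the lectin-only gate and 11.88, 11.38 and 11.99 in the GFP+ gate. Replicate 2 was the lowest array of each gate, and the gates overlapped. GFP+ minus columnar and lectin-only minus columnar were both 0.20 ± 0.21 (adjusted p = 0.65 and 0.684), and GFP+ minus lectin-only was 0.00 ± 0.21, with an interval of -0.48 to 0.48. On 1432543_a_at the columnar arrays read 7.72, 7.11 and 6.83, the lectin-only arrays 7.45, 7.88 and 7.71 and the GFP+ arrays 7.35, 7.55 and 7.21, with overlap and a lectin-only minus columnar difference of 0.46 ± 0.25 (adjusted p = 0.427). The dimmest, 1456030_at, gave -0.20 and -0.21 against columnar in GFP+ and lectin-only, neither past the test.

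**Figure D3:**
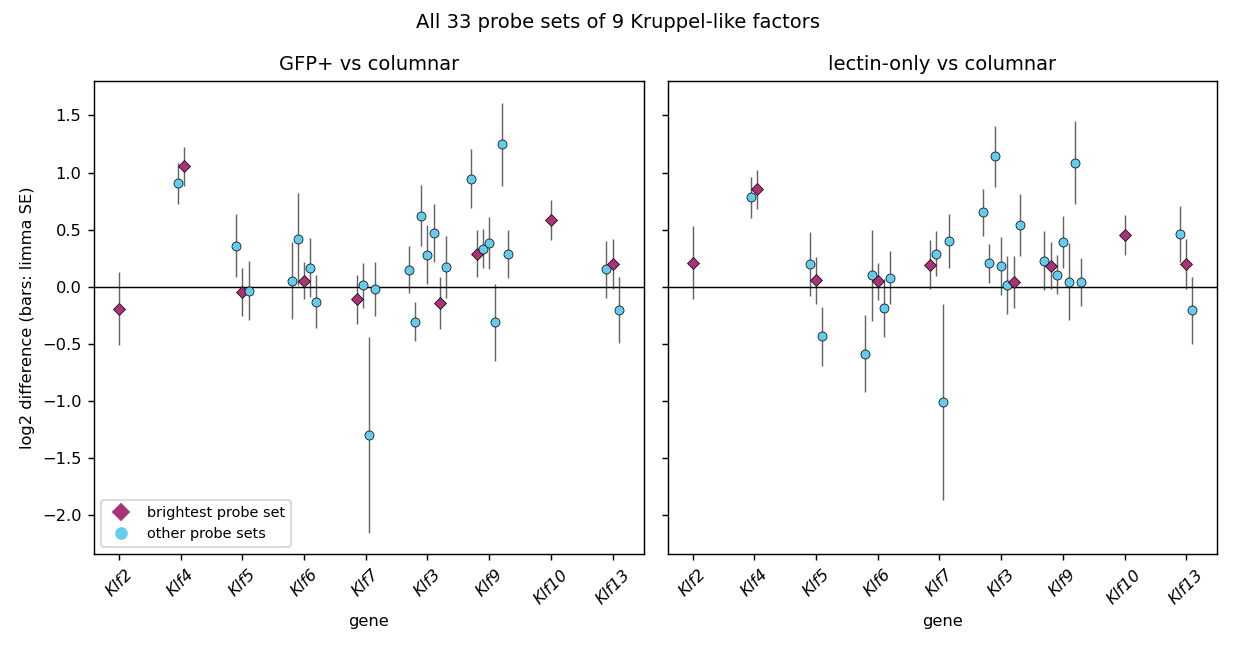
Log2 differences of all 33 KLF probe sets against the columnar gate, GFP+ on the left and lectin-only on the right, with limma SE; diamonds mark each gene's brightest probe set. The Klf4 probe sets lie together at 0.91 and 1.05 on the left, while those of Klf9 spread from -0.31 to 1.25.

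Over all 33 KLF probe sets, 1 was called in GFP+ against columnar (the brighter one of Klf4), beside 7% of all probe sets, and 2 had an adjusted p under 0.05, beside 8.2%. In that comparison 10 KLF probe sets were higher and 1 lower without overlap, beside 12.7% and 13.9% of all probe sets. In lectin-only against columnar 3 had an adjusted p under 0.05 (the pair of Klf4 and 1 of Klf3), beside 5.68%, and 6 were higher without overlap, beside 12.1%. In GFP+ against lectin-only 0 were called, beside 1.63% of all probe sets called, and 3 had an unadjusted p under 0.05. There 2 were higher and 3 lower without overlap, beside 4.41% and 9.98%. Probe sets of a gene share their RNA and are not independent.

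Among 7 measured other KLF genes, 2 were called in at least 1 comparison, Klf11 and Klf15. In each comparison 1 of the 7 was called. The share of all genes called was 11.2% in GFP+ against columnar, 8.85% in lectin-only against columnar and 3.74% in GFP+ against lectin-only. Klf11, a TGF-beta-inducible relative of Klf10, read 8.62, 7.97 and 8.03 in the columnar gate, 8.67, 9.15 and 8.73 in the lectin-only gate and 9.69, 9.38 and 9.11 in the GFP+ gate. The columnar arrays were lowest, and replicate 3 of the GFP+ gate lay just under replicate 2 of the lectin-only gate. GFP+ exceeded columnar by 1.19 ± 0.25 (adjusted p = 0.00975), called in all 9 fits that left out an array. Lectin-only minus columnar was 0.65 ± 0.25 (adjusted p = 0.151).

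Klf15, a glucocorticoid-induced metabolic regulator, read 8.66, 7.89 and 7.90 in the columnar gate, 6.54, 6.56 and 7.00 in the lectin-only gate and 9.03, 7.73 and 8.17 in the GFP+ gate. The lectin-only arrays were below all others, by -1.45 ± 0.34 against columnar (adjusted p = 0.0245) and with GFP+ minus lectin-only at 1.61 ± 0.34 (adjusted p = 0.0314). The call against columnar was lost when the first columnar array or either of the first 2 lectin-only arrays was omitted (adjusted p up to 0.0872). That against GFP+ was lost when GFP+ replicate 1, GFP+ replicate 3 or any lectin-only array was omitted (up to 0.0978), and its adjusted p was 0.051 with only these gates fitted. Over the 7 measured of 8 other KLFs, which include Klf12 and Klf16 without a call, the medians were 0.16, 0.20 and 0.21 in GFP+ against columnar, lectin-only against columnar and GFP+ against lectin-only. The 7 also include Klf14, above background on no columnar or GFP+ array, and Klf1, near background at means of 3.90, 3.98 and 4.19. The last median, 0.21, is the Klf1 value.

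**Figure D4:**
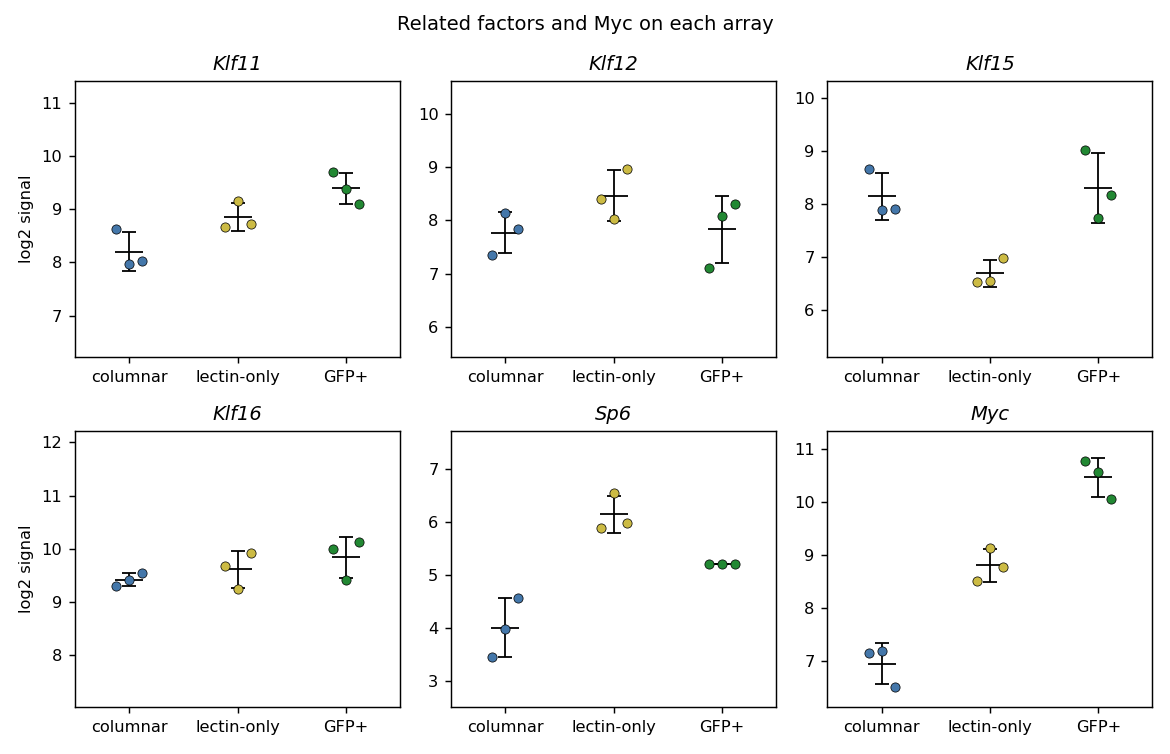
Log2 signal of related factors and Myc on each array by gate; points are arrays, long bars means and whiskers SD over 3 arrays. Klf15 is lowest on the 3 lectin-only arrays, and Myc rises from columnar over lectin-only to GFP+ without overlap.

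Among 7 measured of 9 Sp factors, which bind the same GC boxes as KLFs, Sp6 alone was called. The share of all genes called was 8.85% in lectin-only against columnar and 11.2% in GFP+ against columnar. The Sp6 differences in these comparisons were 2.13 ± 0.29 (adjusted p = 0.00134) and 1.19 ± 0.29 (adjusted p = 0.0203). With the probe sets averaged these were 0.70 and 0.24, and the GFP+ call was lost when columnar replicate 1 or 2 or any GFP+ array was omitted (adjusted p 0.0565 to 0.0634). The columnar Sp6 arrays read 3.46, 3.99 and 4.57, with 2 of 3 above the background level of 3.56, so both differences start near background. Sp5, Sp7 and Sp8 exceeded that level on no columnar or GFP+ array. The deposited Sp6 value was exactly the same, 5.20, on all 3 GFP+ arrays, so its SD of 0 there is no measure of replicate spread. The fit pools the spread of the 3 gates, so the tie can also lower the SE and adjusted p of both Sp6 differences. Such a tie within a gate occurred in 531 of 45101 probe sets, controls included, and in 0 of the 33 KLF probe sets. Equal values on any 2 of the 9 arrays occurred in 8 of the 33 KLF probe sets (24.2%) and in 36.3% of all. Of 10 KLF cofactors (CtBP, Sin3, histone deacetylase and acetyltransferase genes), 0 were called and 0 had an unadjusted p under 0.05 in each comparison, and Ctbp1 and Ctbp2, the corepressors of Klf3, differed by 0.01 and 0.37 between GFP+ and columnar.

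Of 6 ubiquitin ligases described to act on KLF proteins or their pathways, 0 were called, with 2 at an unadjusted p under 0.05 in each comparison. In GFP+ against columnar these were Siah1a, described for Klf10, at 0.77 ± 0.17 (adjusted p = 0.0149, under the minimum difference), and Wwp1, a ligase for Klf2 and Klf5, at 0.83 ± 0.29 (adjusted p = 0.0931). Of 12 upstream regulators 0 were called in GFP+ against columnar, beside 11.2% of all genes, with 4 at an unadjusted p under 0.05. There 1 was called higher without lectin-only replicate 2 or 3. The count was also 1 with trend and robust moderation, only these gates fitted or a replicate block. It was 1 too with averaged probe sets or the probe set of largest variance. Mef2c, an activator of Klf2 also expressed in B and myeloid cells, was called at 2.37 ± 0.62 in lectin-only against columnar (adjusted p = 0.0394) and -2.87 ± 0.62 in GFP+ against lectin-only (adjusted p = 0.0336), while Klf2 passed neither test. The Mef2c arrays read 3.565, 3.667 and 5.739 in columnar and 3.629, 3.235 and 4.598 in GFP+. Most of these lay near the background level of 3.56, so the sizes of both differences are uncertain. The first Mef2c call was lost when columnar replicate 1 or 2, lectin-only replicate 1 or 3 or GFP+ replicate 1 was omitted (adjusted p up to 0.135), and the second when GFP+ replicate 1 or 2 or lectin-only replicate 1 or 3 was (up to 0.121).

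Of 19 measured of 21 genes described elsewhere as KLF targets, 6 were called higher and 0 lower in GFP+ against columnar (median 0.20), beside 5.88% of all genes called higher, and 7 higher and 0 lower in lectin-only against columnar (median 0.36), beside 6.47%. The list was chosen with these data known. The 6 became 2 without GFP+ replicate 2 or 3, 3 without columnar replicate 2 and 4 without columnar replicate 1 or 3, and the 7 became 5 to 7. The 6 include Plau, above background on 1 of 3 GFP+ arrays and no columnar array. In GFP+ against lectin-only 0 were called, with 4 at an unadjusted p under 0.05, and 1 was called lower without lectin-only replicate 1 or 2. The count called lower there was also 1 with trend and robust moderation, a replicate block or averaged probe sets. Sprr1a, a cornified envelope gene and described Klf4 target, lay 4.68 ± 0.83 above columnar in lectin-only (adjusted p = 0.00572), with columnar arrays from 6.79 to 10.52. Ccl5, described under Klf13, lay 2.39 above columnar in lectin-only. That call held in 3 of the 9 fits that left out an array, and 2 of 3 columnar arrays were above background. Cdkn1a, the cell cycle inhibitor p21 described under Klf4 and Klf6, lay 1.91 ± 0.29 above columnar in lectin-only (adjusted p = 0.00244) and 1.28 in GFP+. The GFP+ call of Cdkn1a was lost without columnar replicate 1 or GFP+ replicate 2 or 3 (adjusted p 0.0523 to 0.0585). Cdk1, also on the list, lay 1.23 above columnar in GFP+ and was called in all 9 fits that left out an array. Thbd, the anticoagulant receptor described under Klf2 and Klf4, lay 2.16 ± 0.27 above columnar in GFP+ and 2.68 ± 0.27 in lectin-only (adjusted p = 0.000633 and 0.000317). Plau was not above background on any columnar array, and its lectin-only level was at least 1.7-fold higher (adjusted p = 0.00164), a bound of the lectin-only mean against the background level.

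Immediate early genes are given because cell isolation is known to induce them together with Klf4, Klf6 and Klf10. Of 19, 4 were called higher in GFP+ than in columnar, 2 in lectin-only than in columnar and 1 in GFP+ than in lectin-only, with 0 lower, beside 5.88%, 6.47% and 0.896% of all genes called higher, and the medians were 0.20, 0.13 and 0.11. The 4 became 3 without any columnar array, GFP+ replicate 1 or 2 or lectin-only replicate 1, when Junb was lost (adjusted p 0.0507 to 0.128). Junb was also lost with arrays centred on their medians (0.085) and with quantile normalization (0.0575). With averaged probe sets Egr3 was lost from the 4 (0.0587). The 2 became 1 without any columnar array or lectin-only replicate 1 or 3, when Egr3 was lost (0.0553 to 0.0913), and with averaged probe sets (0.159). The largest was Myc, whose arrays rose in the order of gates seen for Klf4, at 6.51 to 7.19, 8.50 to 9.13 and 10.05 to 10.77 (GFP+ minus columnar 3.51 ± 0.27, adjusted p = 4.46e-05). Egr2 lay 1.36 above columnar in GFP+ and was called in all 9 fits that left out an array. The linear signal summed over the list ran from 90916 to 103375 in columnar, from 97130 to 106487 in lectin-only and from 110464 to 117410 in GFP+, and its part in the Klf4 and Klf10 differences was not tested.

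Cell type markers moved with the gates. In columnar, lectin-only and GFP+ cells, the linear signal summed over 12 basal genes ran from 11324 to 13936, from 33032 to 46144 and from 48205 to 58290, the order of gates seen for Klf4. The 12 ciliated genes summed to 13027 to 14695, 7966 to 11042 and 5238 to 9194, and the 12 secretory genes to 97888 to 112104, 81331 to 90619 and 67498 to 82333. The 18 leukocyte genes summed to 15805 to 16180, 35425 to 47643 and 6645 to 11250. Of the 18, 16 were called higher in lectin-only than in columnar, beside 6.47% of all genes, and Cd3g was not above background in columnar.

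The 12 endothelial genes summed to 202 to 208, 331 to 416 and 174 to 200, with Cdh5, Kdr, Emcn and Cldn5 not above background on any columnar array, nor Cdh5 and Tie1 on any GFP+ array. The 10 fibroblast genes summed to 761 to 857, 1055 to 1432 and 2425 to 3461, with 2 called higher and 4 lower in GFP+ than in columnar (median -0.80). The sums were, for the 8 smooth muscle genes, 134 to 200, 428 to 875 and 466 to 804, and the measured 2 of 4 erythroid genes were not above background in any gate. Beside the Klf4 call in GFP+ against columnar, 6 of the 18 leukocyte genes were called higher in GFP+ and 1, Lyz2, lower (median 1.19). The share of all genes called higher there was 5.88%. With an array left out the 6 ran from 1 to 7, with 1 without columnar replicate 2 or GFP+ replicate 3, 2 without replicate 1 of columnar or lectin-only or GFP+ replicate 2, and 3 without lectin-only replicate 3. The endothelial genes had a median of 0.14 there, with 0 called higher and 1, Vwf, lower. Some sums rest on a single bright gene, left out in sums added after the data were seen. Lyz2, a lysozyme gene of myeloid cells also expressed in airway epithelium, made up 89.1% to 94.7% of the columnar leukocyte sum. The other 17 leukocyte genes summed to 833 to 1728 in columnar, 22926 to 35041 in lectin-only and 1633 to 5172 in GFP+, so that columnar and GFP+ overlapped. Dcn, a matrix proteoglycan gene, made up 81.6% to 89.0% of the GFP+ fibroblast sum, and the other 9 fibroblast genes summed to 634 to 748 in columnar and 380 to 513 in GFP+, the opposite order. Mylk made up 63.7% to 73.2% of the GFP+ smooth muscle sum. The other 7 smooth muscle genes summed to 110 to 121 in columnar, 248 to 556 in lectin-only and 159 to 291 in GFP+. Cnn1 and Actg2 were not above background on any columnar or GFP+ array. Krt15 made up 75.2% to 86.1% of the columnar basal sum. The other 11 basal genes summed to 1943 to 2917, 20551 to 29992 and 37057 to 43333 in columnar, lectin-only and GFP+. The Klf3 probe set 1431630_a_at, Klf15 and Mef2c differed in the lectin-only gate, where the leukocyte sum was highest. The part of cell mixture in these differences was not tested.

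**Figure D5:**
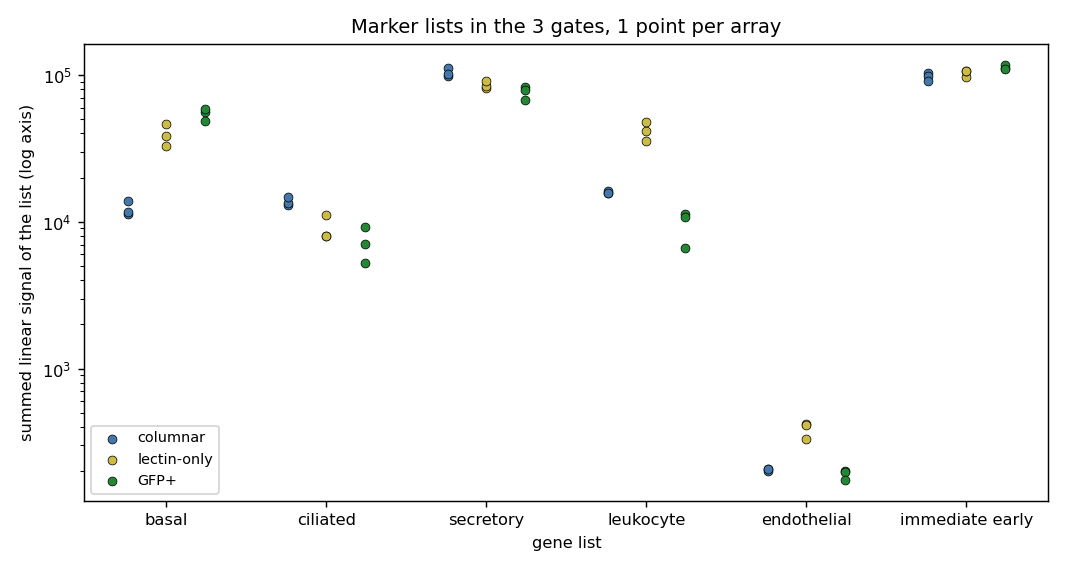
Summed linear signal of each marker list on each array, on a log axis, by gate. Basal sums are lowest in the columnar gate, and leukocyte sums are highest in the lectin-only gate (35425 to 47643).

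The genes with array values most like those of Klf4, by Pearson correlation over the 9 arrays among 13953 genes whose mean over all arrays exceeded background, were Notch1 (r = 0.984), Bnc1 (0.983) and Dsc3 (0.983). Notch1, a receptor of basal and suprabasal cells, averaged 9.28, 11.06 and 11.59 in columnar, lectin-only and GFP+. Bnc1, a zinc finger factor of basal epithelial cells, averaged 3.16, 7.94 and 9.42, with only 1 of 3 columnar arrays above background, so that it passed this filter through the lectin-binding gates. The desmosomal cadherin gene Dsc3 averaged 4.55, 8.75 and 10.51. With 3 gates, any gene that steps up in the same order scores highly, so these are a description of 9 arrays.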

How the data were processed

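Per the submitters' processing notes, the authors made the deposited log2 values with RMA; its software, version and filters are not given in the sources used here. The table held 45101 probe sets on 9 arrays, and 64 control probe sets were left out. Platform annotation supplied for these probe sets gave 34945 of them 1 symbol, 932 several and 9160 none, and the last 2 kinds entered only the probe set fit. Symbols of 34741 matched a RefSeq gene table, which changed 0. Background (3.56) was the 95th percentile of 80 olfactory and vomeronasal receptor probe sets.

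All 9 arrays were fitted together with limma 3.58.1 (R 4.3.3; lmFit, eBayes; 6 residual and 3.46 prior degrees of freedom). Adjusted p-values are from limma. Named genes were the members, up to 4 called genes per list and comparison (2 where none was called), 3 genes most like each called member, and Krt5, Trp63, Foxj1 and Ptprc. Members and lists were chosen with earlier results of these data known. The replicates are biological per the labels, with the animals behind each not stated. Only 3 arrays per gate limit the precision. The code was tested on simulated data. Alternatives covered scaling, dim features, probe set choice, gates fitted, trend and robust moderation, a replicate block and each array left out.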

Additional observations from a re-analysis of the deposited data

How the results depend on the processing

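Centring arrays on their medians moved the median of all genes to -0.12 in GFP+ against columnar, -0.17 in lectin-only against columnar and 0.06 in GFP+ against lectin-only. The share of calls that were higher went from 73.1% to 58.2% in lectin-only against columnar and from 24% to 35.9% in GFP+ against lectin-only. For GFP+ against columnar, the 1 called KLF gene became 0 with centred arrays and with averaged probe sets and 2 with no minimum difference, and held with any array left out (1 to 1). The 1 called KLF probe set there became 0 centred and 2 with no minimum, and 1 to 2 with an array left out. For lectin-only against columnar, the 0 called genes became 1 (Klf3) with the probe set of largest variance and 1 (Klf4) with no minimum, and stayed at 0 with an array left out. The 1 called probe set there became 0 centred, quantile-normalized or with only the gates compared, 3 with no minimum, and 0 to 1 with an array left out, with 0 when columnar array 1 or 3, lectin-only array 2 or 3, or GFP+ array 2 was omitted. Without columnar array 2 the 1 called was Klf9 1452723_at, not the Klf3 probe set.

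Differences near 0 changed sign. Centring moves all genes of a comparison by the same amount, so the centred changes of sign are 1 shared shift. The cause of the other changes was not tested. Centred, lectin-only against columnar gave -0.029 for Klf2, -0.20 for Klf3, -0.18 for Klf5, -0.19 for Klf6, -0.048 for Klf7, -0.056 for Klf9, -0.038 for Klf13 and -0.013 for Klf9 1422264_s_at. GFP+ against columnar gave -0.029 for Klf6 and -0.028 for Klf6 1418280_at, and GFP+ against lectin-only 0.057 for Klf5 and 0.16 for Klf13. With averaged probe sets, GFP+ against columnar gave 0.18 for Klf3 and 0.093 for Klf5, lectin-only against columnar -0.059 for Klf5, -0.11 for Klf6 and -0.032 for Klf7, and GFP+ against lectin-only 0.15 for Klf5. With the probe set of largest variance, GFP+ against columnar gave 0.62 for Klf3, 0.36 for Klf5 and -0.20 for Klf13, lectin-only against columnar -1.01 for Klf7 and -0.21 for Klf13, and GFP+ against lectin-only 0.16 for Klf5 and 0.003 for Klf13. The Klf7 value is that of 1419356_at, on which columnar replicate 2 stood apart at 10.51. Quantile normalization gave 0.054 for Klf13 in GFP+ against lectin-only.

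With an array left out, GFP+ against columnar ran from -0.39 to 0.011 for Klf2, -0.25 to 0.043 for Klf3, -0.16 to 0.088 for Klf5, -0.013 to 0.099 for Klf6, -0.26 to 0.068 for Klf7 and -0.004 to 0.12 for Klf6 1418280_at. Lectin-only against columnar ran from -0.15 to 0.43 for Klf2, -0.13 to 0.17 for Klf3, -0.11 to 0.20 for Klf5, -0.027 to 0.11 for Klf6, -1.72 to 0.28 for Klf7 1419356_at and -0.007 to 0.37 for Klf9 1422264_s_at. GFP+ against lectin-only ran from -0.25 to 0.059 for Klf5, -0.062 to 0.079 for Klf6, -0.023 to 0.26 for Klf9 and -0.15 to 0.19 for Klf13.

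Same-numbered arrays of different gates deviated together with r between -0.07 and 0.33 over 9 pairs (-0.47 to 0.17 over 18 pairs of different number). Of 18 array-to-gate matches, 11 were best with their own number, where 6 of 18 would be so with no pairing. The labels state no pairing and these values do not settle it. The main fit used no block, so it may leave a shared replicate effect unmodelled. With a replicate block the called KLF genes stayed at 1 in GFP+ against columnar. The block moved some other counts. Leukocyte genes called higher in GFP+ than in columnar went from 6 to 9. Ciliated genes called lower in lectin-only than in columnar went from 8 to 10. Endothelial genes called lower in GFP+ than in columnar went from 1 to 0. With 3 arrays per gate, the 95% intervals of the KLF differences reached from 0.35 (Klf6) to 0.71 (Klf2) to either side.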
